A study of Homo sapiens with 13 samples.

Results

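The comparison described here set PC9 cultures held in osimertinib for 28 days against untreated PC9 cultures. Its members were the libraries titled D28 R1 to R4 and D0 R1 to R3 of a TrAEL-seq data set, so 7 of 13 libraries entered, 4 at day 28 and 3 untreated. PC9 is an established line of human lung adenocarcinoma whose growth depends on a mutant, active EGFR, and osimertinib inhibits that receptor kinase; it was given at 500 nM. Untreated cells were collected while growing, whereas cultures at day 28 no longer proliferated and were collected as they stood. Cells that outlast a targeted drug in this way are called persisters. A pair of osimertinib-resistant lines, each grown from a single PC9 clone and kept in 500 nM of the drug, served as the reference profile only and was in neither group; each line is 1 clone and had 1 library. Whether replicates were separate cultures is not stated in the labels, and p-values reflect variation among libraries that may be only technical. No expression values were used here, so the cell type could not be checked against marker genes.

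TrAEL-seq tags free 3′ ends of DNA and records the strand of each. At a moving replication fork the lagging and leading strands expose such ends unequally, so the strand balance of a genomic window tracks the prevailing direction of its forks. A region where forks start sends them out to both sides and is seen as a steep change of sign, called an initiation zone. Where converging forks meet, the sign changes back, usually over a longer distance, and this is a termination zone. The method also tags DNA ends that do not come from forks.

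Strand polarity, in percent, ran from -100 to 100 in windows of 20 kb. Which strand counts as positive is not given in the sources used here. Rises from left to right were taken as initiation zones because rises of at least 40 points outnumbered falls of that size in the resistant lines, 2080 against 1284, a choice made with the data in view. With the opposite sign both kinds of zone would trade names, and every size below would stay as it is. Of 143736 full windows on chromosomes 1 to 22 that do not overlap, 118467 (82.4%) had a value in all 7 libraries and both resistant lines. The values come without read counts, and their depth is therefore unknown. Values were present in 92.6% to 93.4% of windows in the untreated libraries and 86.9% to 93.3% at day 28. Windows at exactly -100% or 100% made up 0.0642% to 3.70% of the values in untreated libraries and 0% to 2.22% at day 28, so the groups overlapped in both measures. The overlap in valued windows came from D28 R2 (92.7%) and D28 R3 (93.3%). D28 R1 and D28 R4, at 86.9% each, lay below every untreated library. Overlap in these measures does not show equal depth.

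D28 R3 stood apart from the other day 28 libraries. Its polarity over the 20 kb windows correlated with the untreated libraries at Pearson's r of 0.727 to 0.798, while that of D28 R1 lay at 0.311 to 0.322, that of D28 R2 at 0.451 to 0.465 and that of D28 R4 at 0.424 to 0.448. Untreated libraries correlated with each other at 0.840 to 0.867, and day 28 libraries at 0.187 to 0.450. These correlations share windows and genome, are lower in noisier libraries, and are given as a description. D28 R3 and D28 R4 are titled day 28 but carry a treatment label of 7 days. D28 R4 did not share the position of D28 R3. The main results are therefore given with all 4 day 28 libraries, without D28 R3, and without both libraries. Most single genes and regions are given with all 4 only.

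At day 28 the polarity pattern of untreated cells was recognisable, but it was much lower in every library. The amplitude of a library, defined as the slope of its polarity on that of the resistant lines, was 1.52, 1.58 and 1.41 in the untreated libraries. At day 28 it was 0.489, 0.462, 0.792 and 0.586 in R1 to R4. All 4 day 28 libraries lay below all 3 untreated libraries, and D28 R3 was the highest of the 4. The means were 1.503 ± 0.0890 (SD, n = 3) and 0.583 ± 0.150 (n = 4), so day 28 stood at 38.8% of untreated. An exact two-sided permutation test over libraries gave p = 0.0571, the smallest that 3 against 4 libraries allow, so no measure taken per library could pass 0.05. Over the 11 measures per library that were tested, the adjusted p (Benjamini-Hochberg) was 0.0698. The day 28 mean was 34.1% of untreated without D28 R3 and 31.7% without D28 R3 and R4.

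**Figure D1:**
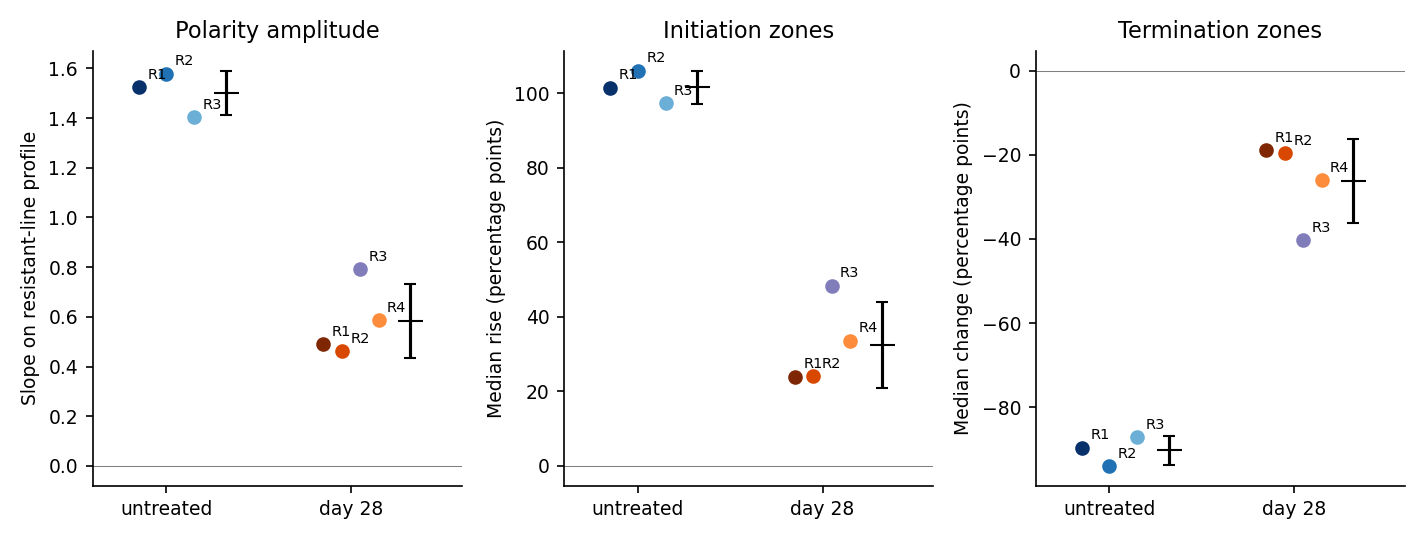
Amplitude (slope on the resistant-line profile, left), median rise across initiation zones (percentage points, middle) and median change across termination zones (percentage points, right) in each untreated and day 28 library; points are libraries, and bars give the mean and SD. In all 3 panels the day 28 libraries lie nearer to 0 than the untreated ones, and D28 R3 lies nearest to the untreated group.

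In windows where the resistant lines were strongly polarized, some day 28 libraries had the opposite sign in part of the single 20 kb values. Among 5437 windows at least 50 points from 0 in the reference, the share with the opposite sign was 0.681%, 0.773% and 0.313% in the untreated libraries. It was 20.9%, 11.9%, 0.736% and 11.7% in D28 R1 to R4. D28 R3 lay inside the untreated range, so the groups overlapped (exact permutation p = 0.114, adjusted p = 0.126). Values nearer to 0 change sign more easily through noise, and depth is unknown. Whether noise gave these signs was not tested.

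Initiation zones were flatter at day 28 in every library. The 2080 zones called had a median width of 160 kb (quartiles 120 and 200.0 kb), and 1958 of them had values at both ends. The median rise across these 1958 was 101.5, 106.1 and 97.3 points in the untreated libraries. At day 28 it was 23.9, 24.1, 48.3 and 33.6 points. The lowest untreated library was above the highest day 28 library, again D28 R3. The group means were 101.6 ± 4.42 and 32.5 ± 11.5 points, so day 28 stood at 31.97% of untreated (exact permutation p = 0.0571). Without D28 R3 that share was 26.8%, and without D28 R3 and R4 it was 23.6%.

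Termination zones were flatter too. Across 1195 of them the median change was -89.6, -93.9 and -87.0 points in untreated libraries and -18.9, -19.7, -40.3 and -26.1 points at day 28. The mean size at day 28 was 29.1% of untreated (exact permutation p = 0.0571), 23.9% without D28 R3 and 21.4% without D28 R3 and R4.

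Zone by zone, 1751 of 1958 initiation zones (89.4%) rose less steeply at day 28 and none more steeply, by limma with Benjamini-Hochberg adjustment at 0.05; with an unadjusted p under 0.05 the total was 1758. The groups of libraries did not overlap at 84.3% of the zones. Without D28 R3, 89.6% of zones were called, 1730 of them among the 1751; without D28 R3 and R4, 90.6% were called, 1707 of them shared. For the 1937 zones whose untreated rise exceeded 20 points, day 28 kept a median of 32.1% (quartiles 23.8% and 40.6%). The rise was still positive in each of the 4 day 28 libraries at 1246 zones, and its day 28 mean was below 0 at 39. Of the termination zones, 1008 of 1195 (84.4%) changed, all towards a smaller fall.

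The mean profile around initiation zone centres, a measure chosen after the data were seen, was lower at day 28 on both sides of the centre. The difference in mean polarity between windows 100 kb to the right and to the left of the centre was 90.8 ± 4.34 points in untreated libraries and 30.1 ± 9.80 points at day 28, or 33.1% of untreated. At 300 kb it was 29.9 and 12.9 points (43.3%), and at 500 kb 17.7 ± 2.36 and 9.31 ± 2.04 points (52.6%). The 500 kb difference as a share of the 100 kb difference was 19.7%, 21.0% and 17.7% in the untreated libraries and 46.9%, 32.04%, 25.6% and 25.7% in D28 R1 to R4. These groups did not overlap (means 19.4% ± 1.68 and 32.5% ± 10.0, exact permutation p = 0.0571). D28 R1 was far above the others; without it the difference between groups was 8.33 percentage points. D28 R1 was also the library with the weakest correlation to the untreated ones. No difference was detected in the share of the 100 kb difference reached within 40 kb. It was 90.6% in untreated libraries and 86.3% at day 28 (exact permutation p = 0.343). Untreated profiles were highest at 60 to 80 kb and lower at 100 kb, so this share does not measure how soon the height was reached.

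**Figure D2:**
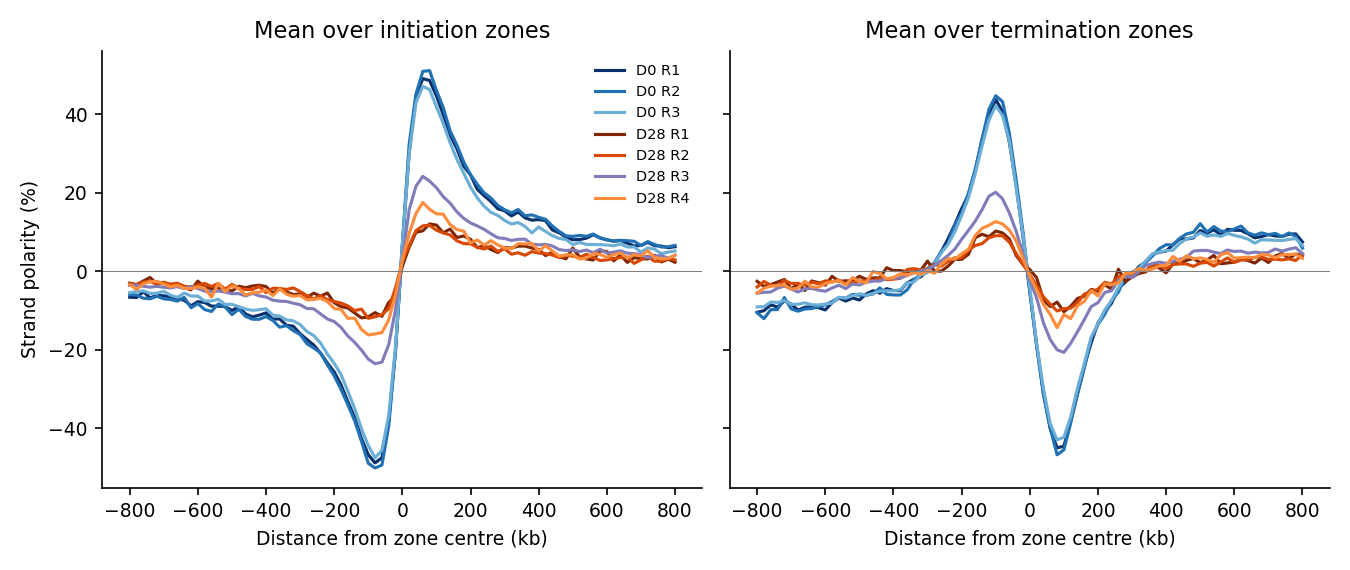
Mean strand polarity (percent) against distance from the zone centre (kb) over initiation zones (left) and termination zones (right) called in the resistant lines, 1 line per library. At 100 kb from initiation zone centres the right-minus-left difference averaged 90.8 points in untreated and 30.1 points in day 28 libraries, and every library crosses 0 near the centre.

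The zones with the largest falls were chosen by that fall and are described only. The zone at PCCB, which encodes a subunit of the mitochondrial propionyl-CoA carboxylase, lay at chr3:136160001-136300000. It rose by 155.8, 182.2 and 150 points in the untreated libraries and by -26.0, 49.7, 52.6 and 6.02 points at day 28. No day 28 library came near an untreated one, and D28 R1 had the opposite slope. The zone at PGPEP1L, a predicted peptidase gene, at chr15:98940001-99160000, rose by 157.7, 163.4 and 139.1 points before treatment and by -41.0, 4.50, 77.4 and 10.5 points at day 28. The other 3 largest falls were at KDSR, an enzyme of sphingolipid synthesis, CDS1, which makes CDP-diacylglycerol, and ITCH, a ubiquitin ligase; their differences were -139.7, -137.2 and -136.0 points.

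Other zones stayed steep in every day 28 library, by a rule that ranked them on their lowest day 28 rise. At CHD2, a chromatin remodelling enzyme gene (zone chr15:92740001-92980000), the rise was 129.6, 131.9 and 124.7 points in untreated libraries and 74.1, 81.4, 77.3 and 88.4 points at day 28. Its 4 day 28 libraries were close together and still below all untreated ones (difference -48.5 ± 15.7 points, SE; limma adjusted p = 0.00435, and 0.0542 with all 13 libraries in 1 fit). At EP400, which encodes another remodelling ATPase (zone chr12:131780001-132020000), the rise was 164.2, 187.9 and 169.1 points against 78.9, 66.9, 105.4 and 76.9 points. The remaining 3 were at IDO2, an enzyme of tryptophan breakdown, IFRD1, a transcriptional co-regulator, and FHL2, a LIM-domain protein, where the lowest day 28 rises were 79.2, 63.5 and 61.5 points.

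**Figure D3:**
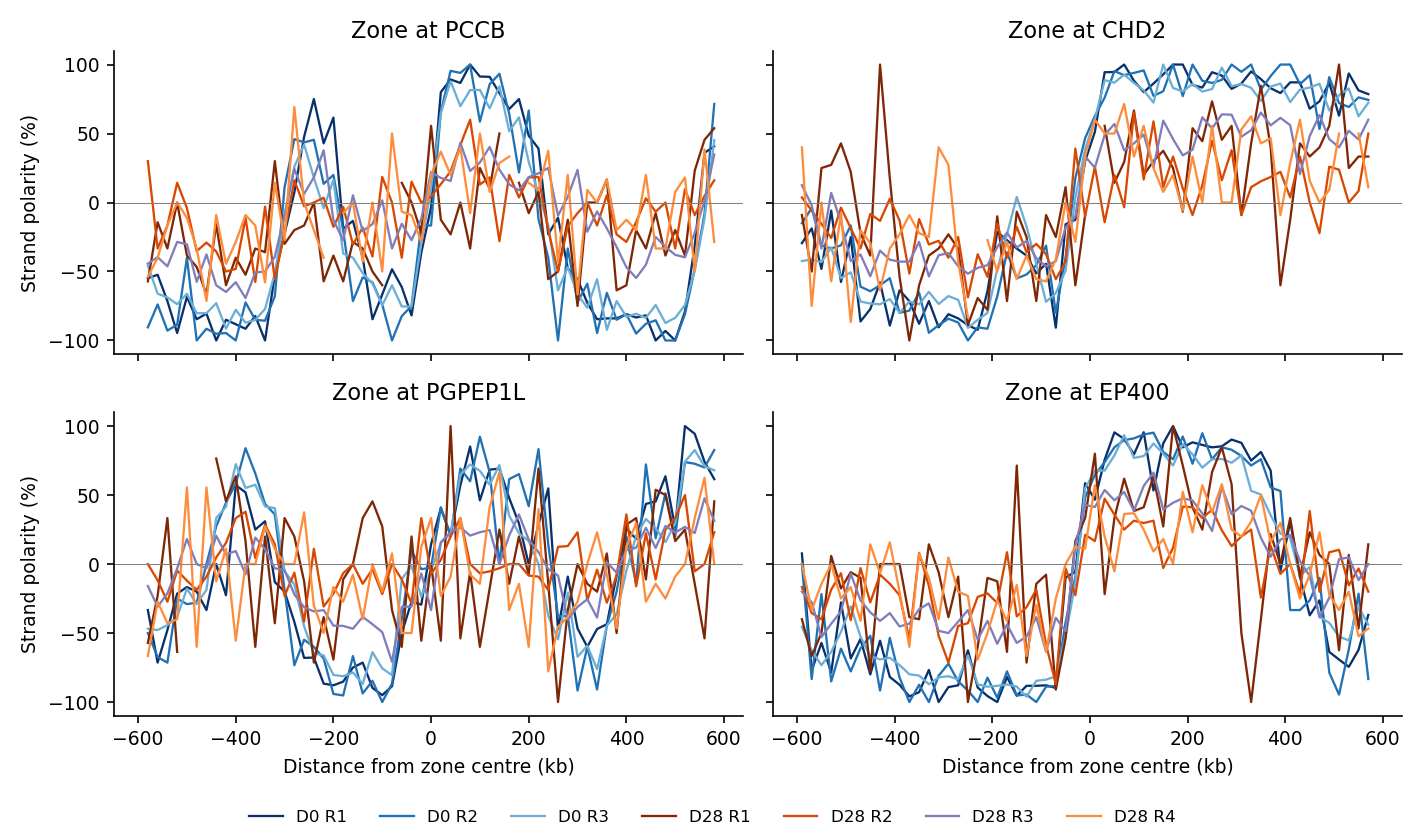
Strand polarity (percent) in 20 kb windows against distance from the zone centre (kb) at PCCB and PGPEP1L, among the zones with the largest falls, and at CHD2 and EP400, among those that stayed steepest; 1 line per library. At CHD2 the day 28 libraries rose by 74.1 to 88.4 points, while at PCCB they ranged from -26.0 to 52.6 points.

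The promoters of these 4 genes lie inside their zones and are shown to place the zones on the sequence, with CG dinucleotides, which mark CpG-rich promoters, in capitals. Each run is the 250 bases before the RefSeq transcription start (GRCh38.p14), read 5′ to 3′ on the gene's strand.
PCCB (chr3:136250090-136250339, plus strand): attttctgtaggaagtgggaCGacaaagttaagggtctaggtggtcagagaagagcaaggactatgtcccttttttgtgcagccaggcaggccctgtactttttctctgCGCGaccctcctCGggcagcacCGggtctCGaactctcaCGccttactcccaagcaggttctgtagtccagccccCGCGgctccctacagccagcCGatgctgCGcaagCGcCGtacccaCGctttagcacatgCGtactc
PGPEP1L (chr15:99005657-99005906, minus strand): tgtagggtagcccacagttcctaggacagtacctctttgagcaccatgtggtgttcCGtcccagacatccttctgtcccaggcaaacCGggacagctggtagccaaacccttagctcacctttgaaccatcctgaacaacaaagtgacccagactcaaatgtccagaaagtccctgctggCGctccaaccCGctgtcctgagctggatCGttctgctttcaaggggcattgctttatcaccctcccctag
CHD2 (chr15:92900074-92900323, plus strand): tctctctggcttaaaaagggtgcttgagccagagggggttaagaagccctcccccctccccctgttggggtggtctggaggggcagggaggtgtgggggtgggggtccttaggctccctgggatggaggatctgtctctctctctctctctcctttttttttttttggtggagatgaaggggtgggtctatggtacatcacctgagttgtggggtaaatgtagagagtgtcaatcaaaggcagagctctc
EP400 (chr12:131949692-131949941, plus strand): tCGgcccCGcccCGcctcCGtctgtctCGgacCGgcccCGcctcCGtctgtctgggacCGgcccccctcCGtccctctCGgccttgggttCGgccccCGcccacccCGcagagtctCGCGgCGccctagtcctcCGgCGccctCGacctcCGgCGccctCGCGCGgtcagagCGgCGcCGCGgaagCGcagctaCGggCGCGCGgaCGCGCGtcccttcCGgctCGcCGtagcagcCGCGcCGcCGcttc
The runs held 15, 5, 0 and 44 CG, in that order. Over the 21155 autosomal promoters of the same length in the table the median was 17, and 96.8% held at least 1. For EP400, 0.922% of promoters held as many. Windows of 20 kb do not resolve a promoter, and 4 chosen zones allow no comparison. Across all zones, the 410 without a listed promoter rose by 95.5 ± 3.43 points in untreated libraries and 30.0 ± 11.4 at day 28, so 31.4% was kept, and 84.6% of them were called. The 1548 zones with at least 1 promoter kept 31.97%, and 90.7% were called. Zones with 3 or more promoters, 728 in all, kept 32.4%. Library by library, zones without a promoter kept 22.3%, 22.55%, 47.6% and 33.2% in D28 R1 to R4. Those with 3 or more kept 25.0%, 24.7%, 47.7% and 32.4%, so D28 R4 went the other way. This difference was not tested.

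Over 100 kb windows, 11747 of 24997 (47.0%) changed, by limma with Benjamini-Hochberg adjustment. The direction was split evenly, with 5840 windows moving to more positive and 5907 to more negative polarity, while 11115 of the 11747 moved against the sign of the reference. Their median distance from 0 was 56.3 points in untreated libraries and 18.3 points at day 28; over all windows it was 30.3 and 12.98. Polarity was farther from 0 at day 28 in 183 of the called windows, and it had the opposite sign in 1348. The groups did not overlap in 49.0% of the windows. Without D28 R3, 45.7% were called, with 11061 calls shared; without D28 R3 and R4, 44.8% were called, with 10383 shared. In single 20 kb windows, 18.1% were called and the groups did not overlap in 30.5%, but no 20 kb window was called once any 1 untreated library was left out, so none is named from that test.

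The windows with the largest differences went from strongly directional to near 0. They were chosen by that difference among called windows whose groups did not overlap, and are described only. A small p and the lack of overlap were thus conditions of the choice. At GLIS3, a zinc-finger transcription factor gene (window chr9:4200001-4300000), polarity was -87.2, -84.4 and -86.8% in the untreated libraries and 0.769, -8.11, -17.1 and -3.70% at day 28. The replicates of both groups were tight there, and the difference was 79.1 ± 8.06 points (SE; limma adjusted p = 5.19e-05). At GMDS, an enzyme of GDP-fucose synthesis (chr6:1700001-1800000), polarity went from 97.1, 72.3 and 70.9% to 1.11, 3.19, 15.8 and -16.0%. At STK32C, a kinase gene near the end of chromosome 10 (chr10:132200001-132300000), the untreated libraries stood at -93.0, -97.9 and -82.4% and the day 28 libraries at -29.8, 6.64, -40.6 and 38.9%. Here the day 28 libraries disagreed on the sign. At ELOVL6, a fatty acid elongase gene (chr4:110100001-110200000), the mean turned from -56.3 ± 9.93 to 22.5 ± 23.5%, with D28 R2 at -0.195% and D28 R1 at 53.4%. The other windows picked by the same rule were at TYRP1 and near SLITRK5 among increases, and at PINX1, near DUSP26, at RCL1 and at PDE3B among decreases; their differences ranged from 78.7 to 79.8 and from -88.3 to -77.8 points.

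After each library was divided by its own amplitude, no 100 kb window was called: limma with Benjamini-Hochberg adjustment gave 0 of 24997 (0.00%), 1880 windows had an unadjusted p under 0.05, and the groups did not overlap in 12.9%. The smallest adjusted p was 0.659. With limma's array weights 3 windows were called, at ELOVL6, near SPDYE21 and near MSRB3. Of these, the window near MSRB3 was scaled to -49.2, -43.8 and -34.7 points in untreated libraries and 8.13, 21.8, 13.5 and 23.8 points at day 28, with no overlap. None of the 3 passed without array weights. Division by a smaller amplitude enlarges the noise of the day 28 libraries, so changes in single windows could be missed. The array weights of the scaled libraries were 0.130, 0.317, 1.34 and 0.288 in D28 R1 to R4, against 3.395 to 5.063 in untreated libraries. The 0 calls thus do not show that the flattening was uniform.

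The signal that libraries of a group have in common was smaller at day 28, under the assumption that noise is independent between libraries. The SD of the shared signal over 20 kb windows was 45.7 points in untreated libraries and 17.2 points at day 28, or 37.6%; with D28 R1 and R2 alone the share was 32.6%. The correlation of the shared signals of the groups was 0.942 over 20 kb windows and 0.949 over 100 kb windows. With D28 R1 and R2 alone it was 0.883 and 0.907. These are descriptions across windows and carry no p.

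Gene-poor regions kept a larger share of their amplitude than gene-rich regions in each of the 4 day 28 libraries, least so in D28 R3. Windows were placed in 4 classes by the protein-coding genes in the surrounding 1 Mb, with cuts at 2, 5 and 9 genes. The day 28 amplitude was 45.0% of untreated in the class with the fewest genes, then 38.8% and 37.1%, and 35.5% in the class with the most. Relative to each library's own genome-wide amplitude, the gene-poorest class stood at 82.4%, 83.2% and 80.0% in untreated libraries and at 102%, 100.5%, 86.6% and 96.6% at day 28. The gene-richest class stood at 106%, 106% and 107% in untreated libraries and at 93.3%, 93.2%, 104.7% and 94.2% at day 28. In both classes the groups did not overlap, but D28 R3 lay close to the untreated libraries. The differences between group means were 14.5 and -9.86 percentage points (exact permutation p = 0.0571 each, adjusted p = 0.137 over the classes). Without D28 R3 they were 17.8 and -12.7, and without D28 R3 and R4 19.4 and -13.0. When the untreated libraries replaced the resistant lines as the reference, an alternative chosen after seeing the data, they were 10.8 and -8.38 (exact permutation p = 0.171 each).

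Distance to a chromosome end separated the groups less. Within 5 Mb of an end the relative amplitude differed by -3.13 percentage points (exact permutation p = 0.114). From 5 to 20 Mb it differed by -0.579, and beyond 20 Mb by 0.554. Without D28 R4 alone these values were -0.925, -0.0946 and 0.137. By height of the reference, amplitude was taken as the mean polarity, signed by the reference, over the mean size of the reference. Windows 0 to 10 points from 0 in the reference kept 39.6% and those at 10 to 25 points 40.5%. Those at 25 to 50 points kept 38.3% and those at 50 to 75 points 39.1%. The 23 windows at 75 to 100 points kept 63.9%. Their amplitude relative to the genome was 68.0% ± 6.45 in untreated libraries and 115% ± 14.8 at day 28. The difference of 46.5 percentage points (exact permutation p = 0.0571) lay between 41.9 and 52.8 with single libraries left out. Polarity cannot pass 100%, so where the reference is at 75 points or more the untreated libraries could not reach their genome-wide amplitude. Part of this difference was therefore fixed in advance, and no conclusion is drawn from it.

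**Figure D4:**
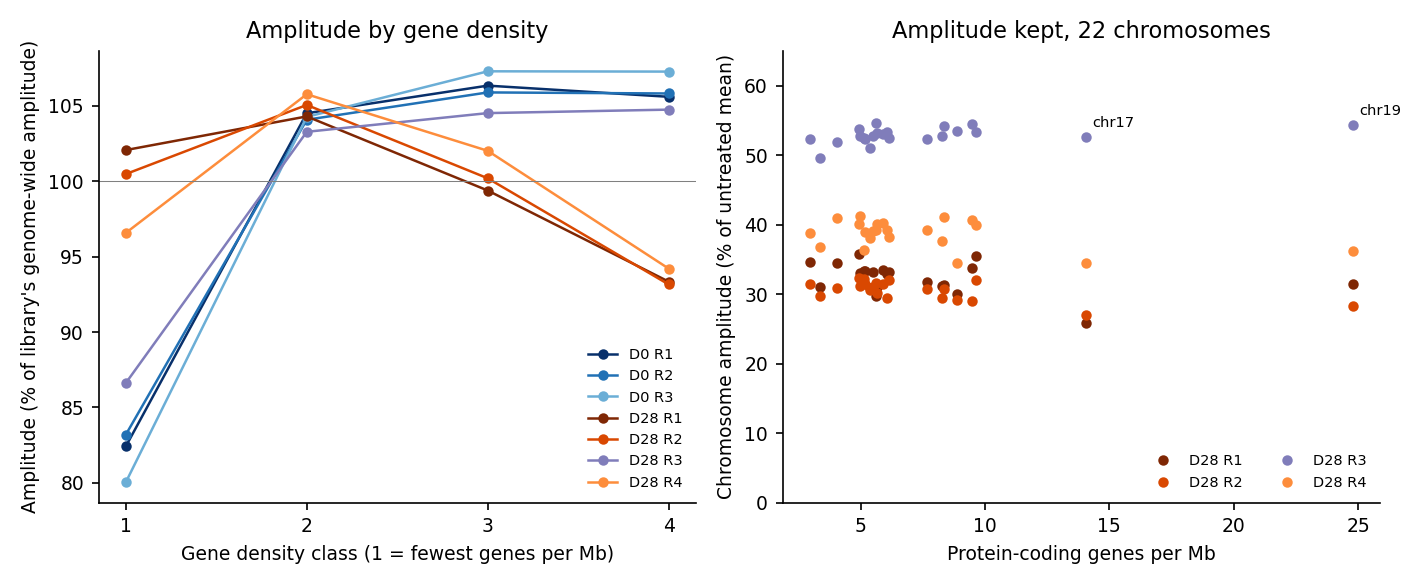
Left, amplitude within 4 gene density classes as a percentage of the library's genome-wide amplitude, 1 line per library; right, amplitude of each of 22 chromosomes at day 28 as a percentage of the untreated mean against protein-coding genes per Mb, 1 point per chromosome and library. On the left D28 R1, R2 and R4 run from 96.6 to 102% in class 1 down to 93.2 to 94.2% in class 4, whereas D28 R3 rises from 86.6 to 104.7% as the untreated libraries do.

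By chromosome, the amplitude kept at day 28 ranged from 35.0% on chromosome 17 to 40.5% on chromosome 8. Relative to the genome, 0 of 22 chromosomes (0.00%) were called by limma with Benjamini-Hochberg adjustment, 4 had an unadjusted p under 0.05, and the groups did not overlap on 5 (22.7%). Leaving out D28 R3 gave 6 calls (27.3%): chromosomes 1, 17, 19 and 22 were lower and chromosomes 7 and 8 higher. Leaving out D28 R3 and R4 gave 10 calls (45.5%). Chromosome 17, with 14.1 protein-coding genes per Mb, stood at 103.8%, 104.0% and 106.8% of the genome-wide amplitude in untreated libraries and at 83.3%, 92.0%, 104.4% and 92.5% at day 28. Its log2 difference was -0.23 without D28 R3 (limma adjusted p = 0.0114) and -0.18 with all 7 libraries (adjusted p = 0.188). Chromosome 19, the most gene-dense at 24.8 genes per Mb, was -0.09 without D28 R3 (limma adjusted p = 0.0255). Across the 22 chromosomes the amplitude kept and the gene density correlated at Pearson's r of -0.354, -0.618 and -0.419 in D28 R1, R2 and R4 and at 0.431 in D28 R3; chromosomes of a library share its noise and depth, and no p is given.

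Polarity over gene bodies followed the same course. It is signed along the chromosome, not along the gene, and says nothing of expression. Of 18184 protein-coding genes, 6783 (37.3%) changed by limma with Benjamini-Hochberg adjustment, 3415 to more positive and 3368 to more negative polarity, and 6472 of the 6783 moved against the sign of the reference. The median distance from 0 was 34.0 points in untreated libraries and 12.99 at day 28. Without D28 R3, 36.2% were called, and without D28 R3 and R4, 34.6%. The count was smaller without an untreated library: 3772 genes without D0 R1 and 3573 without D0 R2. At 943 called genes the sign turned, and at 79 polarity was farther from 0 at day 28. Genes near each other share windows and are not independent. Gene lists are described by counts and shares with all 7 libraries, to be read beside the 37.3% called over all genes. Each list was also counted without D28 R3 (36.2% of all genes called) and without D28 R3 and R4 (34.6%). Calls were then 11 and 11 for EGFR signalling, 8 and 6 for cell cycle entry and 6 and 5 for exit. They were 11 and 12 for origin licensing, 16 and 12 for fork enzymes, and 11 and 12 for DNA damage response. Drug tolerance had 8 and 7, epithelial identity 5 and 5, mesenchymal genes 9 and 9, and fragile sites 1 and 1. Called genes started farther from 0, with an untreated median of 61.7 points, so lists that start farther from 0 can hold more calls.

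Among 26 genes of EGFR and bypass signalling, 12 changed (46.15%, beside 37.3% of all genes), 6 in each direction. Their median distance from 0 went from 38.1 to 11.6 points, beside 34.0 and 12.99 over all genes. EGFR itself, the target of the drug, stood at 33.5, 46.5 and 25.0% in untreated libraries and at 22.9, 11.9, 8.73 and 6.08% at day 28. The groups did not overlap, but the difference of -22.6 points did not pass (limma adjusted p = 0.0665). Nor did it pass without D28 R3 (limma adjusted p = 0.118) or without D28 R3 and R4 (0.238). It passed without D28 R1 (0.0434), with array weights (0.0421) and with windows within 50 kb of the gene added (0.0321). AXL, a receptor kinase linked to tolerance of EGFR inhibitors, went from 55.6, 60.6 and 58.0% to -5.93, 26.8, 28.7 and 29.4% (adjusted p = 0.0187); D28 R1 was far below the rest. The AXL call was lost without D0 R1, R2 or R3 (limma adjusted p = 0.0577, 0.0678 and 0.0527). ERBB2, which pairs with EGFR, went from 51.8 ± 18.03 to 14.5 ± 14.7% (limma adjusted p = 0.0309). Its call was lost without D0 R2 (0.125), D0 R3 (0.0628), D28 R2 (0.0657), D28 R4 (0.0607) or both D28 R3 and R4 (0.0741). ROS1, RET and YES1, all tyrosine kinase genes, changed from -77.0, -82.2 and -72.3% to -22.2, -28.5 and -19.3%. MET was near 0 in both groups, at 2.69 ± 10.7 and 1.84 ± 16.6%.

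Of 16 genes of cell cycle entry, 8 changed (50%, beside 37.3% of all genes), 5 up and 3 down. Their median distance from 0 went from 35.7 to 13.6 points, beside 34.0 and 12.99 over all genes. CCND1, which encodes cyclin D1, stood at 8.11, -36.4 and -31.5% in untreated libraries and at 23.6, 40.0, 21.4 and 18.2% at day 28 (limma adjusted p = 0.0167). All 4 day 28 libraries were positive, whereas the untreated libraries disagreed on the sign. The gene rests on 1 window, and the call was lost without D0 R2 (limma adjusted p = 0.0730) or D0 R3 (0.0619). With windows within 50 kb of the gene added, the difference shrank from 45.7 to 16.4 points and did not pass (limma adjusted p = 0.0631). MYC, a transcription factor of growth, went from -58.0, -63.9 and -66.3% to 25.0, 0.147, -40.04 and -38.0% (adjusted p = 0.0328), and the day 28 libraries disagreed on the sign. That call was lost without D0 R1, R2 or R3 (limma adjusted p = 0.0761, 0.0920 and 0.0893) or D28 R2 (0.0775). CDK6, a partner of the D cyclins, went from 52.7 to 16.9% but was not called without D0 R1 (limma adjusted p = 0.0746) or D0 R2 (0.0650). MDM4, a p53 inhibitor, went from 66.4 to 19.1%. CDK4 was at -17.7 ± 22.4 and -12.7 ± 23.1%. Of 20 tested genes of cell cycle exit and quiescence, 6 changed (30%, beside 37.3% of all genes), 5 up and 1 down. Their median distance from 0 went from 29.75 to 12.0 points. The inhibitor genes CDKN1B and CDKN2C went from -50.9 and -69.9% to -2.04 and -17.5%, and the kinase gene DYRK1A from 62.7 to 21.4%; CDKN2C rests on 1 window, and DYRK1A was not called without D0 R1 (limma adjusted p = 0.0528) or D0 R2 (0.0546). CDKN1A, the p21 gene, was at -13.9, 7.76 and -13.1% in untreated libraries and at 5.56, 32.5, 12.1 and 28.6% at day 28, with overlap (adjusted p = 0.0666, 0.0372 without D28 R1 and 0.0254 with array weights). Without D28 R3 its limma adjusted p was 0.078, and without D28 R3 and R4 it was 0.161. BTG1, an antiproliferative gene, spread from -75.0 to 33.3% at day 28 alone.

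Genes of the replication machinery were among those that changed, in lists that started farther from 0 than all genes. Of 26 origin licensing and firing genes, 14 changed (53.85%, beside 37.3% of all genes), 8 up and 6 down. Their median distance from 0 went from 43.3 to 20.0 points, beside 34.0 and 12.99 over all genes. CDC45, a helicase subunit, went from -54.9, -71.7 and -63.6% to -23.3, -31.5, -28.9 and -27.0% (limma adjusted p = 0.0088). Its day 28 libraries were tight and kept the untreated sign. CDC7, the kinase that triggers origin firing, went from -77.5 to -34.3%, and GINS1, another helicase component, from 81.6 to 33.5%; the GINS1 call was lost without D0 R2 (limma adjusted p = 0.0516). DBF4, the activator of CDC7, was at -27.3 ± 26.3 and -27.9 ± 9.49%. Of 28 tested genes of fork enzymes and nucleotide supply, 16 changed (57.1%), 5 up and 11 down. Their median distance from 0 was 39.5 points in untreated libraries and 10.5 at day 28. LIG1, the ligase that joins Okazaki fragments, went from -89.0, -78.9 and -78.1% to -29.0, -14.5, -35.6 and -25.9%. POLE, the leading-strand polymerase, went from 78.5 to 27.2% and TOP1, a topoisomerase, from 60.1 to 12.7%. RFC4, a clamp loader subunit, was at 8.50 ± 14.4 and 6.60 ± 20.3%.

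Of 21 DNA damage response genes, 12 changed (57.1%, beside 37.3% of all genes), 7 up and 5 down. This list too started farther from 0: its median distance went from 43.8 to 12.7 points, beside 34.0 and 12.99 over all genes. WRN, a helicase, went from 80.8, 85.4 and 81.6% to 26.5, 27.1, 27.9 and 19.6% (limma adjusted p = 0.0058). The untreated libraries were tight, D28 R4 was the lowest of the 4 day 28 libraries and D28 R3 the highest. LIG4, the ligase of end joining, went from 60.0, 88.2 and 48.8% to -16.7, -11.1, 0 and -20.0% (adjusted p = 0.0058), so no day 28 library kept the untreated sign; it rests on 1 window. PALB2, which links the BRCA proteins, went from 77.8 to 22.4%. XRCC4, the partner of LIG4, was at 13.7 ± 10.9 and 12.2 ± 17.2%.

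Of 23 tested genes of drug tolerance and survival, 10 changed (43.5%, beside 37.3% of all genes), 7 up and 3 down. Their median distance from 0 went from 38.2 to 14.7 points, beside 34.0 and 12.99 over all genes. KDM5A, a histone demethylase linked to drug-tolerant persisters, went from -78.1, -91.6 and -76.3% to -29.1, -35.7, -37.8 and -24.7% (limma adjusted p = 0.0058), with no overlap. BCL2L11, which encodes the pro-apoptotic protein BIM, went from -68.4 to -14.7%, and RELA, an NF-kappa-B subunit, from 41.6 to -2.50%. BAX, a pore-forming apoptosis gene, was at 5.89 ± 18.3 and 4.72 ± 14.3%. Of 17 tested epithelial and lung identity genes, 5 changed (29.4%, beside 37.3% of all genes), 1 up and 4 down. Their median distance from 0 went from 26.6 to 13.7 points. GRHL2, a transcription factor of epithelia, went from 85.3 to 31.0%, EPCAM, an adhesion protein gene, from 68.4 to 17.2%, and SFTPA1, a surfactant gene that rests on 1 window, from 67.3 to -0.926%. KRT8, a keratin gene, was at -24.9, -18.3 and -22.4% in untreated libraries and at -13.0, -24.6, -21.0 and -29.2% at day 28. Both means were -21.9%, with a SD of 3.37 and 6.84 points. Of 20 mesenchymal genes, 11 changed (55%, beside 37.3% of all genes), 3 up and 8 down. The median distance from 0 in this list went from 36.3 to 13 points. Among its genes ITGB1, an integrin chain, went from -84.0 to -19.4%, TGFB2, a growth factor gene, from -77.3 to -26.8%, and CD44, a hyaluronan receptor gene, from 54.5 to 17.1%. ZEB1, a repressor of epithelial genes, was at 3.43 ± 10.4 and 3.22 ± 10.0%.

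Of 19 tested genes at common fragile sites, long genes that often break under replication stress, 1 was called, LSAMP (5.26%, beside 37.3% of all genes). It went from 52.9, 50.0 and 43.3% to 11.6, 20.1, 23.2 and 11.8% (limma adjusted p = 0.0123), and was also called without D28 R3 and R4, but not without D0 R1 (0.0575) or D0 R2 (0.0503). The list started lower, with a median distance from 0 of 16.9 points that went to 8.86, beside 34.0 and 12.99 over all genes. The groups did not overlap at 12 of the 19, against 45.4% of all genes. CNTNAP2 went from -25.9 ± 1.75 to -15.0 ± 1.59% without overlap, yet its difference of 10.9 points had an SE of 6.90 (limma adjusted p = 0.238). The variance of each gene is drawn by limma towards that of other genes, so long genes with tight libraries can miss the threshold. The count of calls is thus no measure of how much these genes moved. PTPRG and DAB1 were at 34.6 and -26.1% in untreated libraries and at 15.2 and -8.93% at day 28, and did not pass (limma adjusted p = 0.0716 and 0.0867). DAB1 passed with windows within 50 kb of the gene added (limma adjusted p = 0.0237). NRXN3 was at -0.481 ± 2.50 and -0.283 ± 3.38%.

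**Figure D5:**
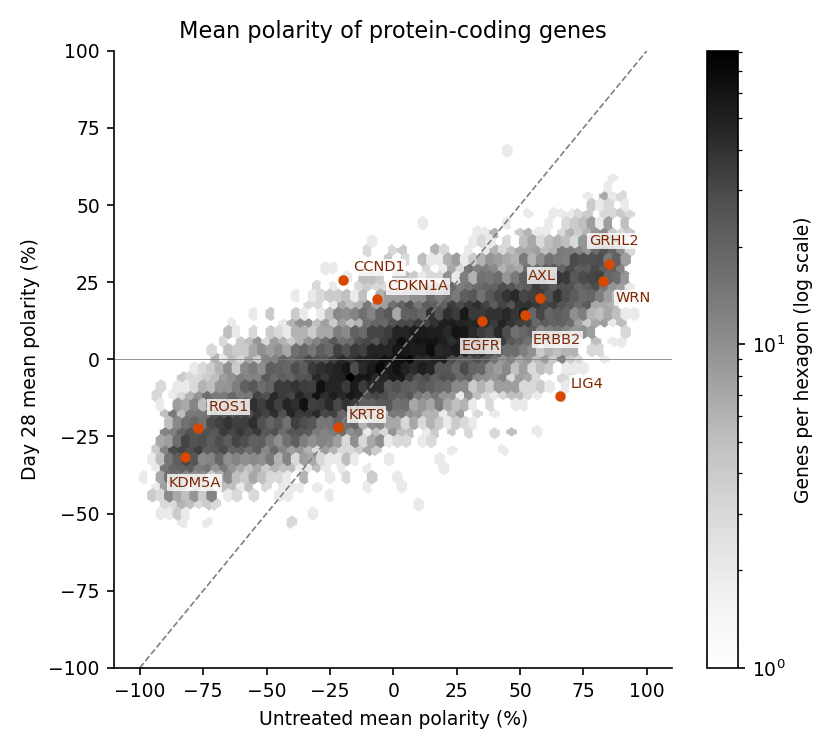
Mean strand polarity (percent) of each protein-coding gene at day 28 against untreated; grey hexagons count genes on a log scale, orange points are named genes and the dashed line marks equal values. Most genes lie nearer to 0 at day 28, while LIG4 and CCND1 lie on the other side of 0 and KRT8 lies on the line at -21.9%.

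A few windows stayed fully polarized. Of 4215 windows of 20 kb in which all 3 untreated libraries were beyond 80 points on the same side, 4 were beyond 80 points in all 4 day 28 libraries too. They were the first windows of chromosomes 1, 4 and 12, and chr4:190120001-190140000 near the other end of chromosome 4. In the window chr1:1-20000 the untreated libraries stood at -100, -100 and -98.3% and the day 28 libraries at -91.0, -100, -98.5 and -99.0%. All 4 windows had windows without a value among their neighbours, as did 30.0% of all windows, and their selection used these same values.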

How the data were processed

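Untreated and day 28 libraries were compared by strand polarity from TrAEL-seq, grouped by title. The values are a signed score in percent per 20 kb window, stepped by 10 kb, deposited by the authors as 1 table; neither its sign convention nor a read minimum per window is stated there. Per the submitters' processing notes, the builds were GRCh38 and GRCm38, and the tools included Bowtie2 2.4.1 and Trim Galore 0.6.5; coordinates are read as GRCh38.

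From these values, full windows that do not overlap on chromosomes 1 to 22 were kept if valued in all 7 libraries, and averaged to 100 kb where at least 3 were. Gene values are means of overlapping windows, with 18184 of 19122 autosomal protein-coding genes of RefSeq GRCh38.p14 tested. Zones were called in the mean of the resistant lines, smoothed over 80 kb: an unbroken change of sign of at least 40 points, measured as the mean of 3 windows at each end. Features were tested with limma 3.58.1 (lmFit, eBayes with trend; R 4.3.3) and Benjamini-Hochberg adjustment at 0.05, and values per library by exact two-sided permutation. The limma script was tested on simulated data.

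Named windows and zones were the 5 largest called changes in each direction without overlap between groups, at most 1 per 5 Mb, named by the nearest gene, plus the 5 zones with the highest lowest rise at day 28. After scaling, the 5 smallest adjusted p in each direction were taken, and only those called under array weights are named. Named genes were the 3 smallest and the 1 largest p of each list, with EGFR, MET, AXL, ERBB2, MYC, CCND1 and CDKN1A always. The members and lists were chosen with earlier results of these data known. The profiles by distance, the shared signal and the promoter classes were added after the data were seen. Replicate numbers gave no pairing: deviations of same-numbered libraries correlated at 9.9e-05, -0.0357 and -0.0731. Alternatives left out each library, used other references, windows, zones, weights, priors and fits, and added the replicate block. Depth is unknown, so no counting error is given.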

Additional observations from a re-analysis of the deposited data

Results flagged for a closer look

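In 110 groups of 4 day 28 libraries, 11 had a library far from the other 3 by Dixon's test, where chance flags about 1 in 20. D28 R1 stood apart at AXL with a polarity of -5.93%, at CDKN2C with 11.1% and at RFC4 with 36.6%. D28 R4 stood apart at ROS1 with -7.28%, at WRN with 19.6%, and in the rise of the IFRD1 zone with 125 points. In amplitude relative to the genome, D28 R3 stood apart on chromosome 1 with 103.2% and in the gene-richest class with 104.7%, D28 R2 on chromosomes 15 and 16 with 93.7% and 98.8%, and D28 R4 within 5 Mb of a chromosome end with 94.4%.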

How the results depend on the processing

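Amplitude and zone measures kept their direction under every alternative run. Leaving out single libraries gave differences of -0.990 to -0.880 in amplitude, -74.4 to -66.3 points in initiation zones, 61.5 to 68.6 points in termination zones and 7.53 to 14.2 percentage points in opposite-sign windows; across zone centres they were -37.6 to -32.7 points at 20 kb, -65.3 to -58.2 at 100 kb, -32.9 to -29.3 at 200 kb, -18.6 to -16.0 at 300 kb and -9.65 to -7.30 at 500 kb. The share reached within 40 kb differed by -6.41 to -1.04 and the 500 kb share by 8.33 to 15.4. By gene density class the ranges were 12.7 to 17.8, -0.0686 to 0.761, -5.97 to -4.26 and -12.7 to -8.79, and by distance to a chromosome end -4.00 to -0.925, -0.997 to -0.0946 and 0.137 to 0.797, with the values nearest 0 without D28 R4; the reversed value of -0.0686 in the second class came without D28 R4 and under the replicate block.

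Calls with single libraries left out numbered 1634 to 1755 for initiation zones, 915 to 1015 for termination zones, 9171 to 11828 for 100 kb windows, 3573 to 6916 for genes, 0 to 0 for scaled windows and 0 to 6 for chromosomes. The 21489 calls at 20 kb (18.1%) became 0 without any 1 of the 3 untreated libraries, up to 26308 without D28 R1, and 9633 with all 13 libraries in 1 fit; for this reason no 20 kb window was named from its test. Genes called fell to 3772 without D0 R1 and 3573 without D0 R2. Array weights called 3 scaled windows. Chromosome calls were 6 without D28 R3 and 10 without D28 R3 and R4, where chromosome 21 turned to a log2 difference of 0.0491 from -0.0026. The cause of these changes was not tested.

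With the replicate block, although the numbers pair nothing, the difference in polarity amplitude was -0.922 (exact permutation p = 0.25). That is the smallest p that pairing replicates 1 to 3 allows. Under this block 1724 initiation zones, 988 termination zones, 11610 windows of 100 kb, 20843 of 20 kb, 5493 genes and 2 chromosomes were called. Among named genes, regions and chromosomes, 26 alternative values lost a call and 23 gained one; 49 sign changes at 10 features concerned differences that passed under neither setting, and they are not counted as reversed, a definition set after they were seen. Depth is unknown, which limits every statement on single windows.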

Other observations

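On the X chromosome, left out of the comparisons, the amplitude over 5049 windows was 1.43, 1.49 and 1.34 in the untreated libraries and 0.439, 0.431, 0.725 and 0.545 in D28 R1 to R4, with no overlap and D28 R3 again the highest. Over the mitochondrial genome, which is copied by its own machinery, polarity was -58.6, -43.1 and -39.9% in untreated libraries and -61.2, -58.8, -58.2 and -79.0% at day 28. The groups overlapped there.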
